A study of Mus musculus with 24 samples.

Results

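The hippocampus arrays of the F2 generation carried a code in their labels, lh or rh, whose meaning the labels do not state, and the genes that differed between the 2 codes are described here. With earlier results of these data known, the members were chosen by that code. They were the 12 F2 arrays of 24 in the series, 6 coded lh and 6 coded rh, and each code held 3 arrays of the control diet (CD) F2 group and 3 of the methyl donor-rich diet (MD) F2 group. The F2 mice were mixed C57BL/6J x 129S6/SvEv hybrids and ate a control diet themselves. Their grandfathers had been fed either the control diet or a diet rich in methyl donors (methionine, choline, betaine, folic acid, vitamin B12 and zinc) for 6 weeks before mating. The labels give an age of 4 weeks for the mice, and the series design gives pools of 4 mice for each array. In CD F2 and in MD F2, replicates 1 to 3 were coded lh and replicates 4 to 6 rh, and CD F2 lh, CD F2 rh, MD F2 lh and MD F2 rh thus had 3 arrays each. Because the hybrids are genetically heterogeneous, arrays can also differ in the alleles of their mice. The remaining 12 arrays of the series came from F1 mice, carry no such code and were used only as a reference for the level of choroid plexus genes.

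The hippocampus is the part of the medial temporal cortex that forms spatial and episodic memory, with granule cells in the dentate gyrus, pyramidal cells in the fields CA1 to CA3, and scattered inhibitory interneurons. It borders on the ventricles, whose wall is lined by ependyma with beating cilia. The choroid plexus, a folded sheet of epithelium over a vascular core, floats in these ventricles next to the fimbria, secretes cerebrospinal fluid through an array of ion and water transporters, and makes very large amounts of transthyretin (Ttr), the carrier of thyroxine and of retinol-binding protein. Levels are given below as the log2 of the array intensity after quantile normalization over the 12 arrays, so that a difference of 1 is a factor of 2, and a positive difference is higher in lh.

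The technical measures of the arrays overlapped between the codes. The median intensity was 148 to 262 (median 246) on the lh arrays and 151 to 228 (median 186) on the rh arrays (exact permutation test over 924 splits, two-sided, p = 0.139; adjusted over 3 measures 0.416). With the agreeing pairs described below averaged, it was 237 ± 39.5 in lh and 180 ± 31.7 in rh (SD, n = 5; exact permutation test over 252 splits, p = 0.0476; adjusted 0.143), and the part of this difference in the results was not tested. Between 27383 and 34661 spots were well above background in lh and between 28000 and 33948 in rh (exact permutation test, p = 0.682; adjusted 0.922). The 2 arrays with the fewest such spots, CD F2 replicate 6 (rh) and MD F2 replicate 3 (lh), stood apart from the rest. Sex-linked genes split the arrays across the codes. Xist, the RNA that coats the inactive X chromosome, had a level of 9.87 on CD F2 replicate 3 (lh), 10.28 on CD F2 replicate 5 (rh) and 9.86 on MD F2 replicate 6 (rh), where the Y-linked Ddx3y was at 1.63, 1.68 and 1.79. On the other 9 arrays Ddx3y was at 10.36 or more and Xist at 2.78 or less. High Xist and high Ddx3y thus never met on 1 array. Whether each array held a pool of 4 mice, as the series design gives, was not tested. Each of the 3 slides of the F2 arrays held both codes, and all 12 arrays were scanned on 1 day. The codes were unequal on slides 2 and 3. Slide 2 held CD F2 replicates 2 and 3 and MD F2 replicate 2 (all lh), with MD F2 replicate 5 (rh). Slide 3 held CD F2 replicates 4 and 6 and MD F2 replicate 4 (all rh), with MD F2 replicate 3 (lh). In CD F2, slide 2 thus held lh only and slide 3 rh only.

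In 2 pairs of arrays, the members agreed about as closely as repeated spots on 1 array. The F2 mice carry alleles of 2 strains, and 53 probes had 2 well separated levels among the 12 arrays. At these probes MD F2 replicates 1 and 3, both lh, lay on the same side in 53 of 53, and so did MD F2 replicates 4 and 5, both rh. The other 64 pairs of arrays shared the side at 35.8% to 81.1% of them. The 53 probes are not all separate markers of strain alleles. Gm5797 and 1810037I17Rik each appear among them more than once. Eif2s3x is low on the arrays with high Xist, CD F2 replicates 3 and 5 and MD F2 replicate 6. Over the 5988 brightest probes, the median absolute difference was 0.064 between MD F2 replicates 4 and 5 and 0.074 between MD F2 replicates 1 and 3, where the scatter of repeated spots alone gives 0.068 and 0.065, and it ran from 0.077 to 0.23 in the other pairs. The difference within the first of these pairs was thus below the spot noise and that within the second slightly above it. The labels give the 4 arrays as separate samples, with different numbers. The comparison was therefore run over all 12 arrays, and again over 10 samples with each pair averaged, and means ± SD are given over the 10 samples, 5 in each code.

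**Figure D1:**
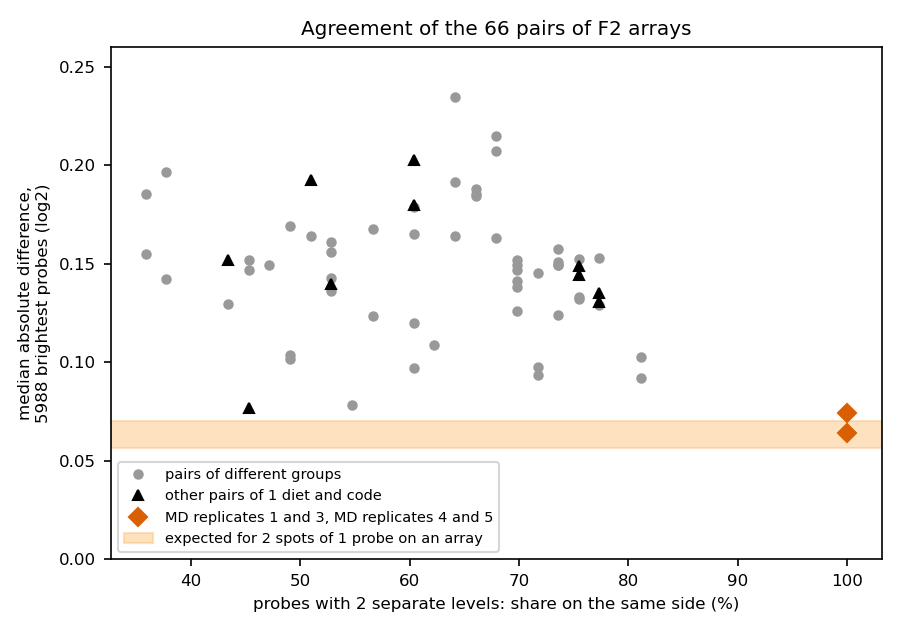
Each point is 1 of the 66 pairs of F2 arrays. The horizontal axis is the share of 53 probes with 2 separate levels at which both arrays lie on the same side (%), and the vertical axis is the median absolute log2 difference over the 5988 brightest probes. The band is the difference expected for repeated spots. The 2 pairs at 100% are MD F2 replicates 1 and 3 and MD F2 replicates 4 and 5, with 0.074 and 0.064.

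Beside choroid plexus genes, the homeobox genes Hoxb3 and Msx3 and the cilia genes Foxj1 and Drc7 were higher in lh, and Crh and Tll1 were lower. Over the 12 arrays with diet as a further term, 39 of 30288 probes (0.129%) were called at an FDR under 0.1 (limma), 22 higher in lh (0.0726%) and 17 lower (0.0561%). The differences of the called probes ran from 0.40 to 1.96 upward and from -1.79 to -0.35 downward. With the 2 agreeing pairs averaged to 10 samples, limma called 0 probes, with 2177 at an unadjusted p under 0.05 (7.19%, of which 3.3% higher and 3.88% lower in lh; 9.94% over 12 arrays), and the smallest FDR was 0.163. The 39 probes kept their direction there, with p of 0.00115 or less and FDRs of 0.163 to 0.415. The genes below are therefore described as called over 12 arrays, with no test passed over 10 samples. All 39 had the same direction within CD F2 and within MD F2. In 22 of the higher and 16 of the lower probes the codes did not overlap within either diet group (0.944% and 1.01% of all probes did so in these directions, 1.96% in either). Over all 12 arrays at once, 3 of the higher and 13 of the lower probes did not overlap (0.234% and 0.475% of all probes in these directions, 0.71% in either). Of the 39, 28 carried a gene symbol, 19 higher and 9 lower. The smallest p belonged to an unnamed probe, A_55_P2097938, 1.64 higher in lh (FDR = 0.00998). It ranked the arrays in nearly the same order as Hoxb3, with CD F2 replicate 2 highest (8.91 and 8.58) and MD F2 rh lowest. Whether these probes measure separate transcripts was not tested.

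The number of calls rested on single arrays. It was 2 without CD F2 replicate 1 or 2, 1 without MD F2 replicate 1, 4 or 5, 6 without MD F2 replicate 2, 24 without CD F2 replicate 4, 80 without CD F2 replicate 3 and 119 without CD F2 replicate 5, and 35 to 49 without any of the other 3. With the slide as a fixed block 0 probes were called by limma, with 5212 at an unadjusted p under 0.05. With the slide as a random block 51 were called, among them all 39. Just outside the threshold lay Sfrp1, a secreted Wnt antagonist, 0.74 higher in lh (FDR = 0.1002), Cyb5rl at 0.35 (FDR = 0.102), Bmp6, a bone morphogenetic protein, at 0.92 and Prm2, a sperm protamine, at -0.73 (both FDR = 0.105).

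**Figure D2:**
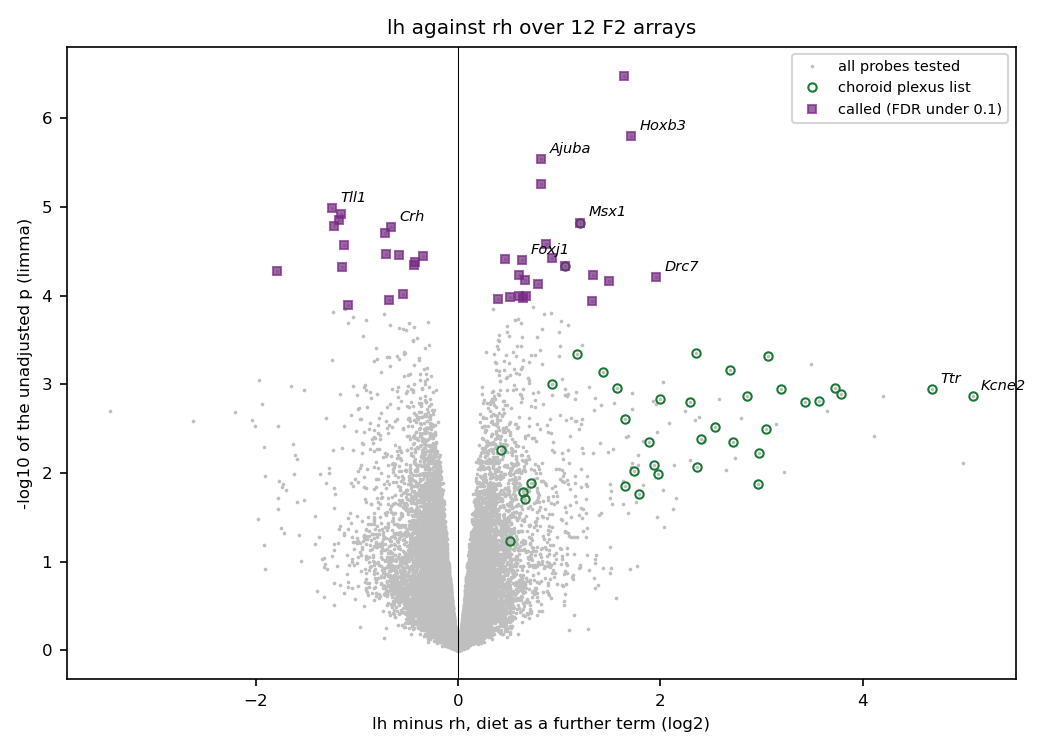
Each point is 1 of the 30288 probes tested. The horizontal axis is the log2 difference of lh minus rh and the vertical axis the -log10 of the unadjusted p of limma over 12 arrays. Choroid plexus list genes (open circles) lie to the right, up to 5.09 for Kcne2, whose rh values lie mostly near background, while the 39 called probes (squares), which lie highest, have smaller differences on both sides.

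Transcription factors had some of the largest differences among the called genes. Hoxb3, a homeobox factor of hindbrain patterning, was at 8.03, 8.58 and 7.49 in CD F2 lh, 6.36, 6.75 and 6.61 in CD F2 rh, 6.68, 6.97 and 7.01 in MD F2 lh, and 5.09, 5.07 and 4.59 in MD F2 rh. It was 1.71 (SE 0.19) higher in lh (FDR = 0.0239), at 7.58 ± 0.73 in lh and 5.88 ± 0.98 in rh (SD, n = 5). The codes separated within each diet, but the MD F2 lh arrays reached down to the level of CD F2 rh. Msx3, a homeobox factor of the dorsal neural tube, showed the same order, with 6.38, 6.99 and 6.06 in CD F2 lh, 5.41, 5.26 and 5.53 in CD F2 rh, 5.33, 5.49 and 6.52 in MD F2 lh, and 3.76, 4.03 and 3.84 in MD F2 rh (difference 1.49, SE 0.24, FDR = 0.0704). Its MD F2 rh arrays lay below every other array. Msx3 was well above background on 6 lh and 5 rh arrays, and its lowest values are dim, so that 1.49 may not be an exact size. Msx1, a related homeobox factor that is also on the choroid plexus list, was at 11.59, 11.69 and 11.06 in CD F2 lh, 9.80, 10.38 and 9.91 in CD F2 rh, 10.13, 10.56 and 9.95 in MD F2 lh, and 9.07, 9.08 and 9.47 in MD F2 rh. Its difference was 1.21 (SE 0.17, FDR = 0.0509), with 10.99 ± 0.70 in lh and 9.73 ± 0.49 in rh (SD, n = 5). CD F2 replicate 5 had the highest Msx1 of the rh arrays. Ajuba, a LIM domain scaffold protein of cell junctions and the nucleus, was 0.82 (SE 0.095) higher in lh (FDR = 0.0292), with 6.68 to 7.55 on the lh arrays and 6.03 to 6.89 on the rh arrays.

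Genes of motile cilia were represented among the calls by Foxj1, the transcription factor that switches on the program of motile cilia, Drc7, a part of the dynein regulatory complex of the axoneme, and Eno4, an enolase of the sperm flagellum. Foxj1 was at 10.54, 10.98 and 10.51 in CD F2 lh, 10.18, 10.08 and 9.89 in CD F2 rh, 9.99, 10.28 and 10.04 in MD F2 lh, and 9.42, 9.44 and 9.55 in MD F2 rh. It was 0.63 (SE 0.096) higher in lh (FDR = 0.0626), at 10.46 ± 0.36 in lh and 9.83 ± 0.32 in rh (SD, n = 5), and the difference was nearly the same in CD F2 (0.63) and MD F2 (0.64). Drc7 differed by 1.96 (SE 0.31, FDR = 0.0697), with 8.13, 8.19 and 7.60 in CD F2 lh, 5.50, 7.06 and 5.37 in CD F2 rh, 5.76, 6.95 and 5.74 in MD F2 lh, and 4.60, 4.25 and 3.86 in MD F2 rh. CD F2 replicate 5, the rh array with high choroid plexus genes, had a Drc7 level within the lh range. Drc7 was well above background on 10 of the 12 arrays, 5 in each code. Morn3 was called higher in lh (FDR = 0.0413), with 4.21 to 4.84 on the lh arrays and 3.41 to 4.09 on the rh arrays. It was well above background on 5 lh arrays and 1 rh array, and thus entered the test through lh, with rh values that lie mostly near background. Eno4 was 0.64 higher (FDR = 0.0919).

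The ependyma and motile cilia list as a whole moved less. Of its 32 tested genes, 1 (Foxj1) was called, 8 were higher in lh at an unadjusted p under 0.05 (4.3% of all probes were) and none lower. The median difference was 0.12 against -0.01 for all probes, with 0.47 in CD F2 and 0.02 in MD F2. The mean level of the list overlapped between the codes, with 7.91 to 8.80 in lh and 8.02 to 8.64 in rh. Rsph1, a radial spoke head protein, was 0.60 higher in lh (FDR = 0.346), Cfap126, a protein of the ciliary axoneme, 0.87 (FDR = 0.23), and the dynein chain Dnah11 0.81 (FDR = 0.411). In contrast, 8 of the 32 genes were on the lower side in lh, among them the dynein chain Dnah9 at -0.31 (FDR = 0.675), the ciliary transcription factor Rfx3 at -0.21 (FDR = 0.722) and the axonemal protein Hydin at -0.10 (FDR = 0.828). In Rsph1, Cfap126 and Dnah11 CD F2 replicate 5 (rh) was again near the lh arrays, with 10.09, 10.57 and 7.40, while MD F2 replicates 1 and 3 (lh) were near the rh arrays.

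The other genes called higher in lh had varied roles. Slc4a2, the chloride and bicarbonate exchanger of many epithelia, was at 11.69, 11.54 and 11.16 in CD F2 lh, 10.76, 10.70 and 10.81 in CD F2 rh, 10.97, 11.05 and 11.09 in MD F2 lh, and 10.18, 10.23 and 10.76 in MD F2 rh. All 6 lh arrays lay above all 6 rh arrays (difference 0.68, SE 0.11, FDR = 0.0919). Slc12a4, a potassium and chloride cotransporter, was 0.47 higher (SE 0.071, FDR = 0.0626), at 12.07 ± 0.19 in lh and 11.59 ± 0.20 in rh (SD, n = 5). C1qtnf5, a secreted protein of the C1q and TNF family, was at 11.79, 11.67 and 10.97 in CD F2 lh, 9.61, 10.35 and 9.45 in CD F2 rh, 9.99, 10.55 and 9.95 in MD F2 lh, and 9.10, 9.20 and 9.23 in MD F2 rh (difference 1.33, SE 0.21, FDR = 0.0687). Col9a3, a chain of collagen IX and a choroid plexus list gene, was 1.06 higher (SE 0.17, FDR = 0.0626), and Sdc1, the heparan sulfate proteoglycan syndecan-1, 0.66 (SE 0.11, FDR = 0.0704). Both were separate between the codes over the 10 samples. Further called genes were Eps8l2, an actin regulator, at 0.87 (FDR = 0.0626), Txnip, a thioredoxin-binding protein that responds to glucose, at 0.79 (FDR = 0.0735), and Ppp1r1b, the dopamine signalling protein DARPP-32, at 0.60 (FDR = 0.0919). Mansc4 at 1.33, Mr1 at 0.51 and Fkbp9 at 0.40 completed the 19 and are named after their values were seen. Mansc4 is dim, well above background on 5 lh and 4 rh arrays.

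The called genes lower in lh were of several kinds. Crh, the stress hormone corticotropin-releasing hormone, which hippocampal interneurons make, was at 8.21, 8.16 and 7.82 in CD F2 lh, 8.79, 8.71 and 8.66 in CD F2 rh, 7.94, 8.30 and 7.88 in MD F2 lh, and 8.75, 8.75 and 8.63 in MD F2 rh. All 6 lh arrays lay below all 6 rh arrays, and the rh arrays lay close together. It was 0.66 lower in lh (difference -0.66, SE 0.092, FDR = 0.0509), at 8.08 ± 0.21 against 8.71 ± 0.065 (SD, n = 5), and nearly the same in CD F2 (-0.66) and MD F2 (-0.67). Tll1, a tolloid-like metalloprotease that processes collagen and activates bone morphogenetic proteins, was at 7.70, 7.96 and 8.31 in CD F2 lh, 9.46, 8.81 and 8.64 in CD F2 rh, 8.55, 8.31 and 8.29 in MD F2 lh, and 9.83, 9.90 and 9.97 in MD F2 rh (difference -1.25, SE 0.16, FDR = 0.0509). Here too the codes did not overlap. A pair of further genes had the same shape, with the MD F2 rh arrays highest and CD F2 replicate 4 next: the vomeronasal receptor gene Vmn1r65 (-1.18, FDR = 0.0509) and the myosin gene Myo1h (-1.15, FDR = 0.0626). The unnamed called probes A_55_P2015173, A_55_P2108816, A_55_P2125862 and A_55_P2186540 had this shape too. Whether these probes and that of Tll1 measure separate transcripts was not tested, so they may not be separate results.

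The other named genes called lower in lh were Syt2, Htr5a, Dst, Cert1 and Rnf112, with differences of -0.68 or smaller in size. Syt2, a synaptotagmin that senses calcium at fast synapses, was at 4.13, 4.48 and 4.17 in CD F2 lh, 5.15, 4.70 and 5.03 in CD F2 rh, 4.43, 4.21 and 3.95 in MD F2 lh, and 5.09, 4.85 and 4.67 in MD F2 rh (difference -0.68, SE 0.12, FDR = 0.0919). Htr5a, a serotonin receptor, differed by -0.44 (FDR = 0.0626), and both probes are dim, well above background on 10 of the 12 arrays. Dst, the cytoskeletal linker dystonin, differed by -0.42 (SE 0.065, FDR = 0.0626), and Cert1, the ceramide transfer protein, by -0.35 (SE 0.053, FDR = 0.0626), with 8.46 to 8.60 on the lh arrays and 8.75 to 8.99 on the rh arrays. Rnf112, a RING finger protein enriched in brain, differed by -0.55 (FDR = 0.0919). In Syt2, Htr5a, Dst, Cert1 and Rnf112 the 6 lh arrays all lay below the 6 rh arrays.

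**Figure D3:**
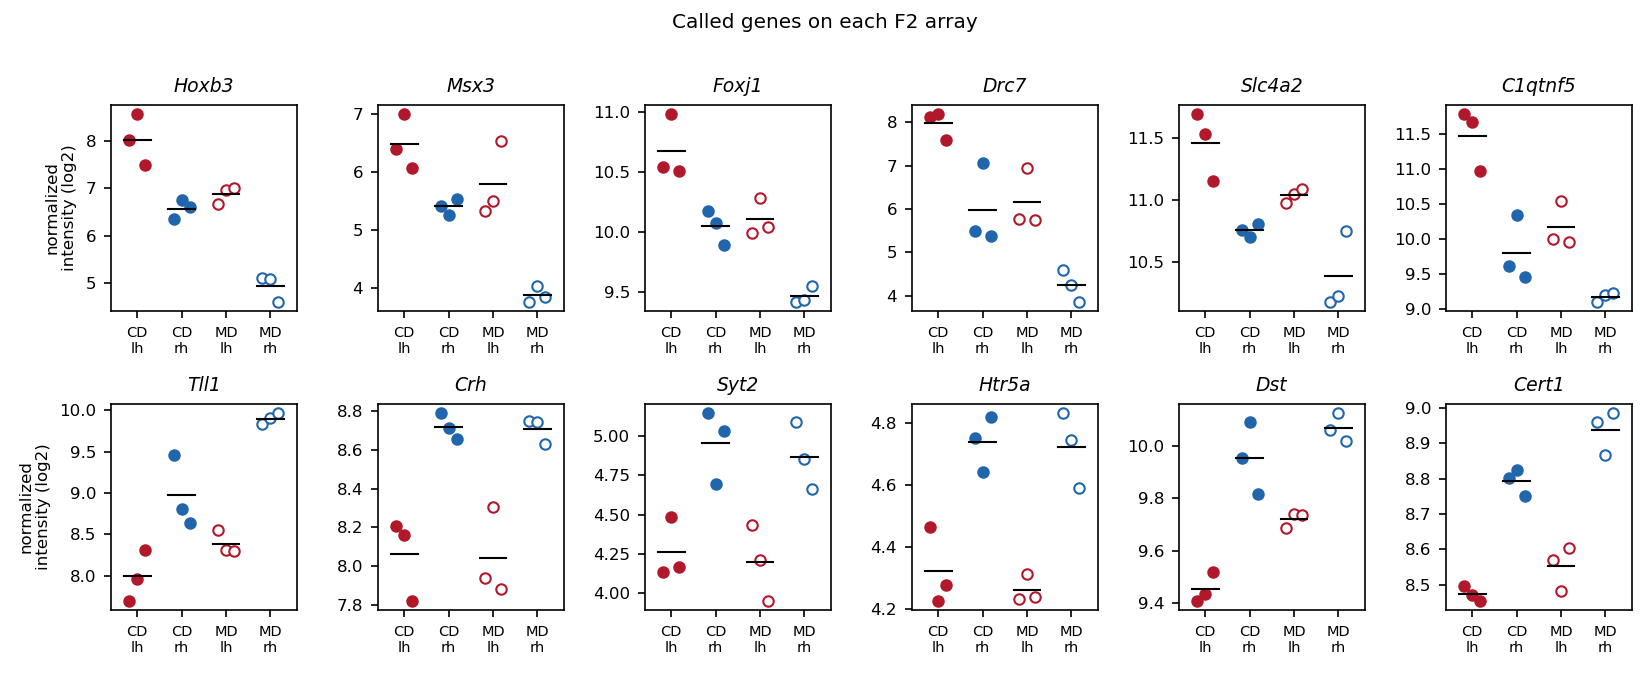
Normalized intensity (log2) of 12 called genes on each F2 array, by diet and code. Points are single arrays (filled for CD F2, open for MD F2; red for lh, blue for rh) and lines are means of 3 arrays. In each gene lh and rh separate within both diets, upward in lh from Hoxb3 to C1qtnf5 and downward from Tll1 to Cert1.

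Within the slides only slide 1 gave a comparison of 2 arrays against 2, with 1 of each code in each diet. With diet in the fit, slide 2 compared MD F2 replicate 2 with replicate 5 and slide 3 compared MD F2 replicate 3 with replicate 4, and replicates 4 and 5 are an agreeing pair. The called probes were nearly all separate within both diets, which largely fixes the direction of these values. Hoxb3 differed by 1.68, 1.89 and 1.92 within slides 1, 2 and 3, Crh by -0.60, -0.44 and -0.87, Foxj1 by 0.45, 0.84 and 0.62, and Tll1 by -1.27, -1.59 and -1.54. With the mean level of the choroid plexus list added to the fit, the differences were 1.64 for Hoxb3, 0.51 for Foxj1, 0.70 for Slc4a2, -0.78 for Crh and -1.20 for Tll1, while that of Msx1 was 0.73 and that of Drc7 0.83. That fit called 7548 of all 30288 probes tested, 38 of the 39 among them, so that a call in it was common among all probes. It kept the members of each agreeing pair as separate arrays and was not repeated with the pairs averaged. Msx1 is itself on the choroid plexus list, so its own level is part of the mean that was added.

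Promoters from RefSeq are shown for Msx1 and C1qtnf5, called higher in lh, and for Tll1, called lower, as examples of differences in both directions. The upward differences of Drc7 (1.96), Hoxb3 (1.71) and Msx3 (1.49) were larger than those of C1qtnf5 (1.33) and Msx1 (1.21). The choroid plexus factor Otx2 binds the letters TAATCC, which were searched on both strands (GGATTA on the other) and stand in capitals where found. Of 27025 genes with a promoter window of 300 bases, 8.14% held the motif, as did 4 of 31 choroid plexus list genes (12.9%; Abca4, Ace, Otx2 and Rbm47) and 1 of 21 called genes (4.76%; C1qtnf5). The windows are Msx1 at chr5:37824536-37824835 (minus strand), Tll1 at chr8:64205959-64206258 (minus strand) and C1qtnf5 at chr9:44101520-44101819 (plus strand), in build GRCm38.p6, and are written 5′ to 3′ along each gene.
Msx1: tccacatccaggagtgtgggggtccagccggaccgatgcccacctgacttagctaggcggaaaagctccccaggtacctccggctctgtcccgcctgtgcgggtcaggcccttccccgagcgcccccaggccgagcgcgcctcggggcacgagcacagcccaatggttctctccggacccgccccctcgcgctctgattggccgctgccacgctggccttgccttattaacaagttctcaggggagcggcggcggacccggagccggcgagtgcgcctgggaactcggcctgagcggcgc
C1qtnf5: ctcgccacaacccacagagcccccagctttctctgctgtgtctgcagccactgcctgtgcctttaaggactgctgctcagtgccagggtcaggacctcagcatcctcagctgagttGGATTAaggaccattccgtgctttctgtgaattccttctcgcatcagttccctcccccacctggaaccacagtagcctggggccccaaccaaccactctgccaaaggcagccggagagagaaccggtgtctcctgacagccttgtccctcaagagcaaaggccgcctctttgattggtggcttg
Tll1: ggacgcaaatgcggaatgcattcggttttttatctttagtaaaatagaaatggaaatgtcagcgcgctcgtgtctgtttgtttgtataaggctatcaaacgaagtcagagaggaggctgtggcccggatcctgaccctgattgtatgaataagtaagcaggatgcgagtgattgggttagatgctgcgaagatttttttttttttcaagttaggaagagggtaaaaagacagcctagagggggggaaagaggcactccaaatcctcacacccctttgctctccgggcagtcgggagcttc

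Many choroid plexus genes had larger differences than the called genes, but the spread within a code was wide and few of them were called. Ttr was at 17.96, 17.86 and 17.79 in CD F2 lh, 10.04, 17.46 and 11.47 in CD F2 rh, 14.24, 17.59 and 14.22 in MD F2 lh, and 10.82, 10.73 and 11.01 in MD F2 rh. Every array coded rh except CD F2 replicate 5 was at 11.47 or less, and the lh arrays were high in CD F2 and mixed in MD F2, where the agreeing replicates 1 and 3 were intermediate. The difference was 4.69 (SE 1.08, FDR = 0.192), with 17.09 ± 1.60 in lh and 12.15 ± 3.01 in rh (SD, n = 5). Of 40 listed choroid plexus genes 38 were tested. All 38 were higher in lh, 37 at an unadjusted p under 0.05 (4.30% of all probes were), and 2 (Msx1 and Col9a3) were called. The median difference was 2.14 (2.56 in CD F2, 1.56 in MD F2) against -0.01 for all probes, with a range of 0.43 to 5.09, the highest value being that of Kcne2, which was well above background on only 2 rh arrays. In all 38 the codes overlapped over the 12 arrays, but in 30 of them lh lay above rh without overlap within both diet groups (0.944% of all probes did). Fewer choroid plexus cells and less RNA per cell cannot be told apart in these samples.

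By role, the potassium channel subunit Kcne2, which sits in the apical membrane, differed by 5.09 (SE 1.20, FDR = 0.193), with 10.88, 11.74 and 11.39 in CD F2 lh, 2.40, 10.81 and 4.04 in CD F2 rh, 7.46, 10.54 and 7.38 in MD F2 lh, and 4.39, 3.54 and 3.68 in MD F2 rh. It was well above background on 2 of the 6 rh arrays, so that most of its rh values lie near background and 5.09 is not an exact size. The sodium bicarbonate cotransporter Slc4a5 differed by 3.73, the water channel Aqp1 by 3.57 and the chloride channel protein Clic6 by 3.43. The folate receptor Folr1, which carries folate into the cerebrospinal fluid, differed by 2.86 (SE 0.67, FDR = 0.193), and the anti-aging hormone klotho (Kl) by 1.74. Otx2, the homeobox factor that keeps choroid plexus identity, differed by 2.54 (SE 0.68, FDR = 0.231), with 12.11, 12.34 and 12.58 in CD F2 lh, 8.29, 11.93 and 8.38 in CD F2 rh, 9.10, 12.09 and 9.06 in MD F2 lh, and 7.98, 7.86 and 7.56 in MD F2 rh. As for Ttr, CD F2 replicate 5 was the single high rh array.

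**Figure D4:**
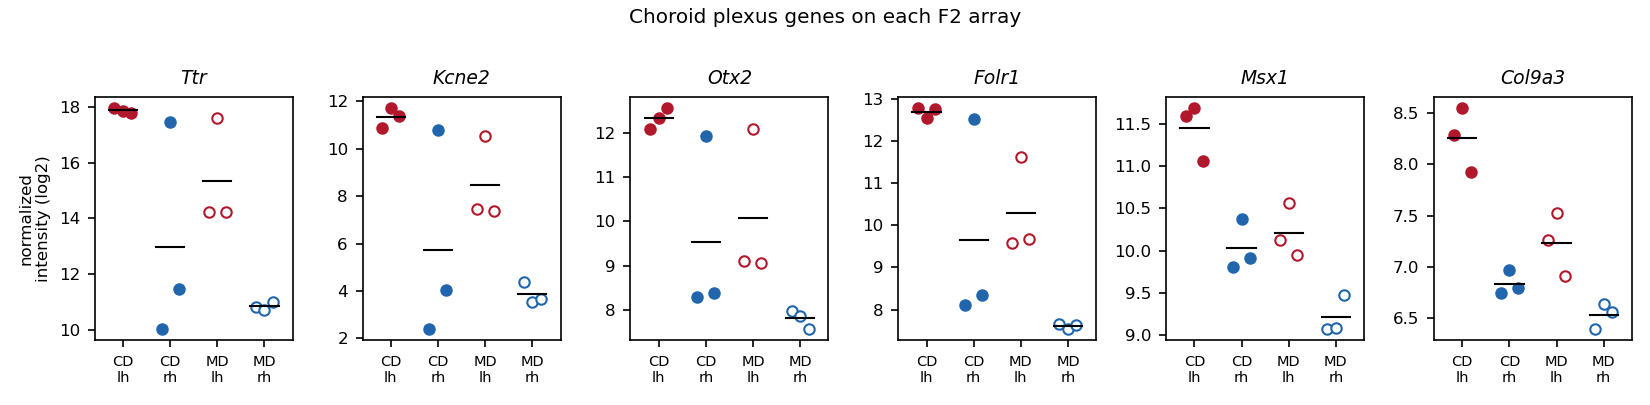
Normalized intensity (log2) of 6 choroid plexus list genes on each F2 array, with symbols as in the plot of the called genes. In Ttr, Kcne2, Otx2 and Folr1, CD F2 replicate 5 is the single high point among the rh arrays, and 2 of the 3 MD F2 lh arrays lie well below the CD F2 lh arrays.

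The mean level of the 38 genes was 8.49 to 11.34 on the lh arrays and 7.37 to 10.61 on the rh arrays, and without CD F2 replicate 5 the rh arrays reached 7.57 at most. The summed intensity of the list was 79546 to 538140 in lh and 44609 to 363000 in rh. Without CD F2 replicate 5 the median difference was 2.54. Within slide 1 it was 0.66, within slide 2 3.31 and within slide 3 0.88. Normalized together with the 12 F1 arrays, which carry no code, Ttr was at 10.92 to 17.27 (median 15.87) in F1, 14.56 to 18.27 (median 17.98) in F2 lh and 10.20 to 17.77 (median 11.10) in F2 rh. The mean of the list was 7.75 to 10.63 (median 9.32) in F1, 8.68 to 11.55 (median 11.09) in F2 lh and 7.58 to 10.81 (median 7.74) in F2 rh. The median of F2 lh thus lay above the highest F1 array in both measures.

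Transport genes were also counted without those on the choroid plexus list. Of 17 genes for ion and water transport, 2 (Slc4a2 and Slc12a4) were called and 10 were higher in lh at an unadjusted p under 0.05 (4.3% of all probes were), with none lower and a median of 0.51. Of the 10 that are not on the choroid plexus list, 2 were called and 4 were higher at this p, with a median of 0.16. Car14, a membrane carbonic anhydrase, was 0.63 higher (FDR = 0.111), and Slc12a2, the sodium, potassium and chloride cotransporter of the apical membrane, 0.33 (FDR = 0.381). Of 14 genes that carry thyroxine, retinol or vitamins, 0 were called and 8 were higher at an unadjusted p under 0.05. Without Ttr and Folr1 these were 6 of 12, with a median of 0.20. The retinol importer Stra6 was 0.43 higher (FDR = 0.331). The proton-coupled folate transporter Slc46a1 was only 0.22 higher (SE 0.055, FDR = 0.22), but its 6 lh arrays (11.04 to 11.32) lay at or above its 6 rh arrays (10.93 to 11.04).

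Genes of the meninges and of fibroblasts also leaned towards lh. Of 29 tested, 0 were called, 11 were higher in lh at an unadjusted p under 0.05 (8 over 10 samples) and 0 lower, where 4.3% of all probes were higher and 5.65% lower (3.3% and 3.88% over 10 samples), and the median was 0.32. Igf2, the imprinted insulin-like growth factor, which both meninges and choroid plexus make in the brain, was at 10.86, 10.84 and 9.71 in CD F2 lh, 9.83, 8.83 and 9.03 in CD F2 rh, 9.66, 9.68 and 9.74 in MD F2 lh, and 8.19, 8.22 and 9.03 in MD F2 rh (difference 1.23, SE 0.24, FDR = 0.139). Unlike Ttr, Igf2 was not high on CD F2 replicate 5, which lay lowest in its group. Igfbp2, a binding protein of the insulin-like growth factors, differed by 1.08 (FDR = 0.193) and Pcolce, an enhancer of collagen processing, by 1.05 (FDR = 0.192), and in both CD F2 replicate 5 was the highest rh array, with 13.33 and 11.35. The collagen genes Col1a1 and Col1a2 differed by 0.41 (FDR = 0.192) and 0.39 (FDR = 0.252). Summed over the list, the intensity was 131890 to 219960 in lh and 99614 to 161140 in rh. The part of choroid plexus and meninges in the differences of the called genes was not tested beyond the fit with the list mean.

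Lists of other cell types and of neighbouring regions had medians between -0.14 and 0.16. The median difference was 0.07 over 20 endothelial and mural genes, 0.16 over 20 oligodendrocyte genes, 0.01 over 15 astrocyte genes and 0.03 over 15 microglia genes, with 0 called in each (limma). At an unadjusted p under 0.05 were 2, 0, 2 and 0 of them, against 9.94% of all probes. Of the oligodendrocyte genes 16 of 20 were on the higher side in lh, with a median of -0.03 in CD F2 and 0.32 in MD F2. The 2 astrocyte genes were lower in lh, the growth factor receptor Fgfr3 by -0.23 (FDR = 0.318) and the glutamate transporter Slc1a2 by -0.19 (FDR = 0.343). The haemoglobin gene Hbb-bt was high on 1 array, CD F2 replicate 4 (rh), at 17.79 against 14.04 to 15.91 on the other 11. Regions that border the hippocampus gave 14 tested thalamus genes with a median of -0.03, 20 genes of neocortex and subiculum with -0.07, and 18 striatum genes with -0.14. Of the striatum list, Ppp1r1b was higher in lh, while Rgs9, a regulator of G protein signalling, differed by -0.60 (FDR = 0.295) and Tac1, the substance P precursor, by -0.36 (FDR = 0.409). Rspo1, a Wnt agonist of the neocortex and subiculum list, differed by -0.39 (SE 0.080, FDR = 0.147), and its lh arrays (8.98 to 9.21) did not overlap with its rh arrays (9.27 to 9.64).

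**Figure D5:**
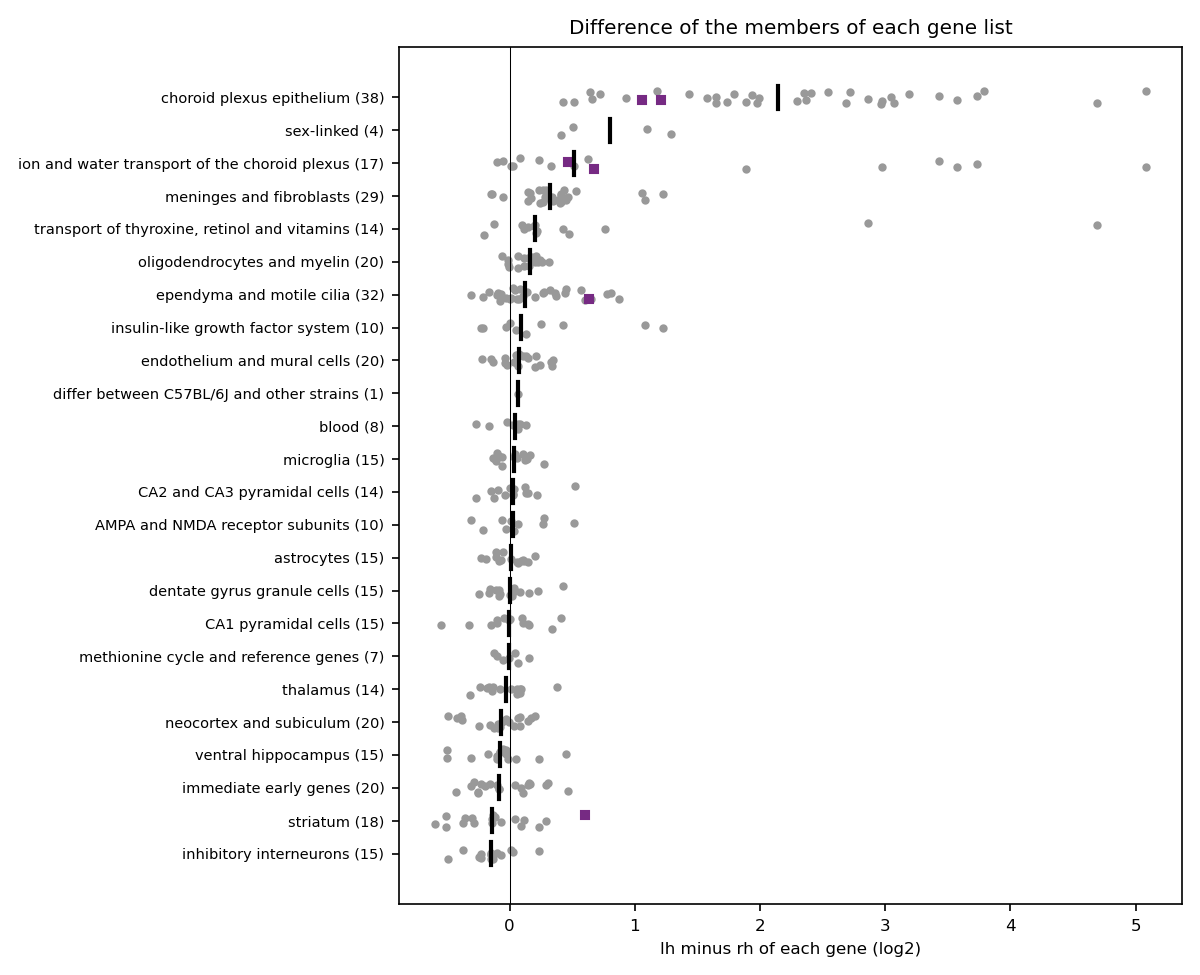
Log2 difference of lh minus rh for each tested gene of the lists, with the number of tested genes in brackets. Squares are called genes, bars are list medians. The choroid plexus list has a median of 2.14, the ion transport list 0.51 and the meninges list 0.32, while the oligodendrocyte list is at 0.16 and the interneuron list at -0.15.

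Lists of the hippocampal neurons themselves were also counted. The median was 0.01 over 15 dentate gyrus genes, 0.00 over 15 CA1 genes, 0.03 over 14 genes of CA2 and CA3 and -0.08 over 15 genes of the ventral hippocampus, and 0 were called by limma in each, with 2, 2, 0 and 4 at an unadjusted p under 0.05, against 9.94% of all probes. Gpr101, an orphan receptor of the ventral list, differed by -0.50 (SE 0.12, FDR = 0.193), but CD F2 replicate 4 (rh), at 10.31, lay among the lh arrays. Inhibitory interneuron genes leaned the other way from the choroid plexus list. Of 15, 12 were lower in lh, 6 at an unadjusted p under 0.05 (3 over 10 samples; 5.65% of all probes were lower at this p over 12 arrays) and 0 called, with a median of -0.15. Cort, the neuropeptide cortistatin, was at 11.04, 10.73 and 10.37 in CD F2 lh, 11.07, 11.52 and 11.30 in CD F2 rh, 10.90, 11.01 and 10.79 in MD F2 lh, and 11.16, 11.21 and 11.53 in MD F2 rh (difference -0.49, SE 0.13, FDR = 0.222). Its codes did not overlap, though the margin was narrow. Parvalbumin (Pvalb) differed by -0.37 (FDR = 0.396), the neuropeptide Vip by -0.25 (FDR = 0.387) and the GABA-synthesizing enzyme Gad1 by -0.15 (FDR = 0.407).

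Among genes of transmission and activity, 0 of 10 AMPA and NMDA receptor subunits and 0 of 20 immediate early genes were called, with 2 and 4 at an unadjusted p under 0.05, against 9.94% of all probes. The NMDA receptor subunit Grin3a was higher in lh, with 9.86 to 9.99 in lh and 8.84 to 9.74 in rh (difference 0.51, SE 0.13, FDR = 0.228), and the AMPA receptor subunit Gria4 was at -0.31 (FDR = 0.239). The activity-dependent factors Fosl2 and Fosb differed by -0.28 (FDR = 0.221) and -0.43 (FDR = 0.296). Mat2a, the methionine adenosyltransferase, differed by -0.01 (SE 0.075, FDR = 0.985), and Kcnmb2, a subunit of BK potassium channels, by -0.05 (SE 0.099, FDR = 0.884). Actb and Gapdh, used as references, differed by -0.10 and 0.05, both within their SE.

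The difference between the codes was tested for being unequal in CD F2 and MD F2. The diet by code term called 4 probes of 30288 (0.0132%) over 12 arrays, each with an FDR of 0.0729, and limma called 0 over 10 samples, where 1630 (5.38%) had an unadjusted p under 0.05 and the smallest FDR was 0.733. One of the 4 carries a symbol, Anp32a, a nuclear phosphoprotein, for which the difference in MD F2 minus that in CD F2 was -1.56. Its probe was at 11.41, 10.85 and 11.16 in CD F2 lh, 11.20, 11.17 and 11.08 in CD F2 rh, 11.29, 11.30 and 11.23 in MD F2 lh, and 12.80, 12.78 and 12.95 in MD F2 rh. The 3 MD F2 rh arrays alone were high, and the probe is 1 of the 53 with 2 separate levels. The unnamed probes A_52_P113916, A_55_P2419711 and A_55_P2038559 had differences of opposite sign in the diets, -1.17 and 0.21, -1.17 and 0.93, and -0.72 and 0.29 in CD F2 and MD F2. The value of A_52_P113916 on CD F2 replicate 1 was left out as irregular.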

How the data were processed

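Hippocampal RNA of F2 mice, in pools of 4 by the series design, was labelled with Cy3 and measured on 1-colour Agilent mouse 4x44K arrays. The deposited values are scanner intensities, background-subtracted and processed by the authors with Feature Extraction (10.7.3.1 per the file headers). Each array has 44397 spots, 43020 of them not controls, for 39429 probes, of which 26049 matched a gene symbol through the annotation tables. No spot was saturated. Left out were 2097 irregular spots. The processed signal was taken as log2, averaged over the spots of a probe and then quantile-normalized over the 12 F2 arrays. A probe was tested where it was well above background on at least 6 arrays and had at least 2 values in each diet-by-code group (30288 of the 30309 past the background filter, 16270 genes). The number of arrays limits the precision. The authors' deposited table of processed intensities was taken as log2 and used as an alternative only.

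limma 3.58.1 (R 4.3.3) fitted code and diet, with Benjamini-Hochberg adjustment over all probes (FDR) and a threshold of 0.1, and a second fit added the diet by code term. Exact permutation tests (scipy 1.17.1) covered single values per array. Scripts were tested on simulated data. The methods name limma after quantile normalization, and give a version of the scanner software other than that in the headers. Because the scanner files hold median and not mean signals, the normexp alternative (offset 50) used the median signal. A p-value measures only the spread between these arrays, which may in part be technical. The members, gene lists and tests were chosen with earlier results of these data known. Named genes were the 12 called genes with the largest difference in each direction that were well above background on all arrays of a code, the 12 outside the choroid plexus list with the smallest p in each direction, up to 4 called members of each list or else its member with the smallest p, a fixed set of sex-linked and reference genes, and probes called for the diet by code term. Where a gene had several probes, the brightest called probe stood for a called gene, and the brightest probe for any other gene and in the lists. Of the 28 called probes with a symbol, 25 were the brightest of their gene. The rest belong to genes with a brighter probe that was not called. Further list members named as examples, and genes next to the threshold, were chosen after their values were seen. The treatment of the 2 agreeing pairs was also chosen after seeing the data. A probe counted as having 2 separate levels where the largest gap between sorted arrays exceeded 1 and 0.5 of the range, its mean exceeded 7, it was above background on all 12 arrays, and its correlation with Ttr was below 0.7 in size. Some genes covered by the rule for named genes are not reported here.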

Additional observations from a re-analysis of the deposited data

Results flagged for a closer look

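In 118 sets of 6 arrays (59 items in each code), 15 held an array far from the others, where chance flags about 1 in 20 sets. Many of these items depend on each other, and the flagged values belong to 8 arrays. CD F2 replicate 5 (rh) was the highest of its code for Ttr (17.46) and the mean of the choroid plexus list (10.61). Low values among the lh arrays on CD F2 replicate 3 were those of the Y-linked genes Kdm5d (2.88), Ddx3y (1.63), Eif2s3y (3.13) and Uty (1.52). In rh the Y-linked genes were low on 2 arrays. MD F2 replicate 3 (lh) had the fewest spots well above background of its code (27383) and the lowest mean correlation with the other F2 arrays (0.979), and CD F2 replicate 6 (rh) had the fewest such spots of rh (28000). CD F2 replicate 4 (rh) was highest for the haemoglobin gene Hbb-bt (17.79). CD F2 replicate 1 was the highest lh array for Htr5a (4.46) and Fosl2 (11.59), MD F2 replicate 2 the highest lh array for Gpr101 (10.55), and MD F2 replicate 6 the highest rh array for Lef1 (8.44) and the lowest for Fosl2 (11.45). For Htr5a, a called gene lower in lh, the distant array was the lh array nearest to rh.

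For 4 probes the difference between the codes was unequal in the 2 diet groups over 12 arrays. The difference in MD F2 minus that in CD F2 was 1.39 for A_52_P113916, -1.56 for Anp32a, 2.10 for A_55_P2419711 and 1.01 for A_55_P2038559. Over 10 samples limma called 0 of them, with 1630 probes at an unadjusted p under 0.05.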

How the results depend on the processing

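The 39 calls over 12 arrays became 22 with scaling to the 75th percentile, 9 with no scaling (9 higher and 0 lower, where the median of all probes moved to 0.21), 10 with no filter on dim probes, 87 among probes above background on all 12 arrays, 23 with the last number of the label in the fit, 60 with a measure of sex, 78 with 1 probe per gene, 23 without CD F2 replicate 6 and MD F2 replicate 3 together, 564 with array weights, 7548 with the mean of the choroid plexus list in the fit and 4 at an FDR under 0.05. There were 0 calls with no diet term (2751 at an unadjusted p under 0.05), with the slide as a fixed block (5212), within CD F2 alone (2022) and within slide 3 (4664), 8 within slide 1, 100 within slide 2 and 91 within MD F2 alone. With MD F2 replicates 4 and 5 averaged 1 probe was called, with 1 and 3 averaged 3, and with both pairs averaged 0 (2177), as with the pairs as a random block (1878) or with both averaged and no CD F2 replicate 5 (2248). Leaving out 1 array gave 1 to 119. The count was 35 with normexp (16 higher, 19 lower), 37 with the authors' table, 38 with irregular spots kept, and 51 both with the slide as a random block and with a trended, robust fit. The cause of these changes was not tested. The called probes measured under each alternative kept their direction, which their separation within both diets largely fixes. With diet in the fit, slides 2 and 3 each compare 1 array with 1. For the 25 named called genes, 368 of 944 values stayed past the threshold, 576 did not, and 0 changed sign. For the 29 other named genes, 91 of 1096 values had the other sign. Htr5a, Syt2 and Morn3 are dim probes, and other called genes also came near background in rh. Mansc4 was well above background on 5 lh and 4 rh arrays. In MD F2 rh, Msx3 was at 3.76 to 4.03 and Drc7 at 3.86 to 4.60.

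The 4 calls of the diet by code term became 0 with no scaling, no filter, irregular spots kept, the slide as a fixed block, without CD F2 replicate 6 and MD F2 replicate 3 together, at an FDR under 0.05, with both pairs averaged, with MD F2 replicates 4 and 5 averaged, and with the pairs as a random block. They became 9 among probes above background on all 12 arrays, 182 with the last number of the label, 9989 with array weights, 1 with 1 probe per gene, 1 with MD F2 replicates 1 and 3 averaged, 2 with both pairs averaged and no CD F2 replicate 5, and 0 to 561 when 1 array was left out, with 561 without CD F2 replicate 5, 410 without MD F2 replicate 2 and 10 without CD F2 replicate 1. The median of the choroid plexus list, 2.14, was 0.66 within slide 1, 1.81 to 2.54 when 1 array was left out, and 0.88 to 3.31 under the other alternatives. No paired analysis was possible because the codes share no replicate numbers, with numbers 1 to 3 in lh and 4 to 6 in rh.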
